A study of Homo sapiens with 18 samples.

Results

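The mRNAs examined here are those of the etoposide arm, time point 40 of triptolide compared with time point 0, in 3 libraries against 3 of the 18 in the series. The 6 libraries are all those whose labels name etoposide at these time points, and no measured value enters that rule. The cells were hTERT RPE-1, a telomerase-immortalised line derived from human retinal pigment epithelium, grown in 10% fetal bovine serum and then starved for 48 h in 0.1% serum, which the labels give as G0/G1. All 6 cultures received 50 µM etoposide for 30 min and belong to the 10 µM triptolide course. The labels give the course as 0, 20 and 40 without a unit, and do not say whether the cells of time point 0 had received triptolide, so the numbers serve here as names. The other arm had DMSO in place of etoposide and the same time points. RNA was polyadenylate-selected and sequenced with strand information, and the labels call the 3 replicates independent. Poly(A) selection measures polyadenylated RNA, and counts are shares of a library, so a loss shared by all mRNAs alike does not show.

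Triptolide binds the XPB helicase of the transcription factor TFIIH and blocks initiation by RNA polymerase II. Once synthesis is blocked, the level of an mRNA follows its decay, which is fast for many early-response and signalling mRNAs and slow for most housekeeping mRNAs. Etoposide traps topoisomerase II on cut DNA, and is used as an anticancer drug for that reason. The study's title ties topoisomerase II to N6-methyladenosine (m6A), a methyl mark on mRNA that is placed by METTL3 and METTL14 and that is known to favour decay of many transcripts.

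The 6 libraries compared held between 9103027 and 11580219 counts, and 18604 to 19989 genes had at least 1 count. A count of 3, taken as the floor of detection, equalled 0.259 to 0.33 CPM (read counts after TMM scaling of library sizes), which covers counting error only. Mitochondrial genes had 0 counts in all libraries. In replicate 3, 44 protein-coding genes that exceeded 5 CPM in the other replicates were at 0 in every library, and RPS9 and CARS1 were far lower there than in replicates 1 and 2. Of the 14 retinal pigment epithelium markers examined, 7 exceeded 1 CPM in the mean of these libraries, TYR, DCT and TTR were at 0 and RPE65 was at most 2 counts in a library, whereas MITF and OTX2 were present. The 14 markers summed to 1051 to 1808 CPM at time point 40 and 1003 to 1793 CPM at time point 0, most of it from KRT8 (mean 704 CPM at time point 40, 638 CPM at time point 0) and KRT18 (642 CPM and 632 CPM), keratins of simple epithelia in general. Of the other lists, 7 of 10 mesenchymal and 1 of 3 endothelial markers were over 1 CPM, and none of 6 markers of other epithelium or of 6 blood markers was. Replicate 2 of DMSO at time point 0 stood apart in the share of counts on antisense genes, 1.42% against 0.217 to 0.253% in the other 17 libraries, and replicate 2 of etoposide at time point 20 had the fewest genes with a count, 17854. Both enter the comparison of these 6 libraries only through the gene filter and scaling shared by all libraries, and through its estimate of spread and of replicate effects. In bulk RNA, fewer cells of a type and less RNA per cell cannot be told apart.

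At time point 40, 143 of 14186 tested genes were lower than at time point 0 (1.01% of those tested) and 0 were higher (0%), by edgeR's quasi-likelihood test with the replicate number as a block and a Benjamini-Hochberg adjusted p under 0.05. At an unadjusted p under 0.05 there were 734 lower and 178 higher genes, while DESeq2 called 169 lower and 2 higher genes. A further 8010 genes (56.5%) held, meaning that the 95% interval of their log2 change lay within 0.5 of 0 on both sides. The remaining 6033 genes were neither called nor measured closely enough to be described as held. All 143 genes called lower were lower in each of the 3 replicate pairs. In 116 of them the 3 libraries of time point 40 lay wholly below the 3 of time point 0, an arrangement seen in 4.84% of all tested genes, and the opposite arrangement in 3.09%. Without the replicate block, 29 genes were called lower, all of them among the 143, and 0 higher. The fit without replicate 2 of DMSO at time point 0 called 147 lower genes and the fit without replicate 2 of etoposide at time point 20 called 191. Leaving out single libraries of the comparison gave 87 to 110 lower genes, the fewest without replicate 1 of time point 40, and 90 without replicate 3 of time point 40 and 94 without replicate 2 of time point 0. Leaving out a whole replicate gave 58, 118 and 56 for replicates 1, 2 and 3.

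**Figure D1:**
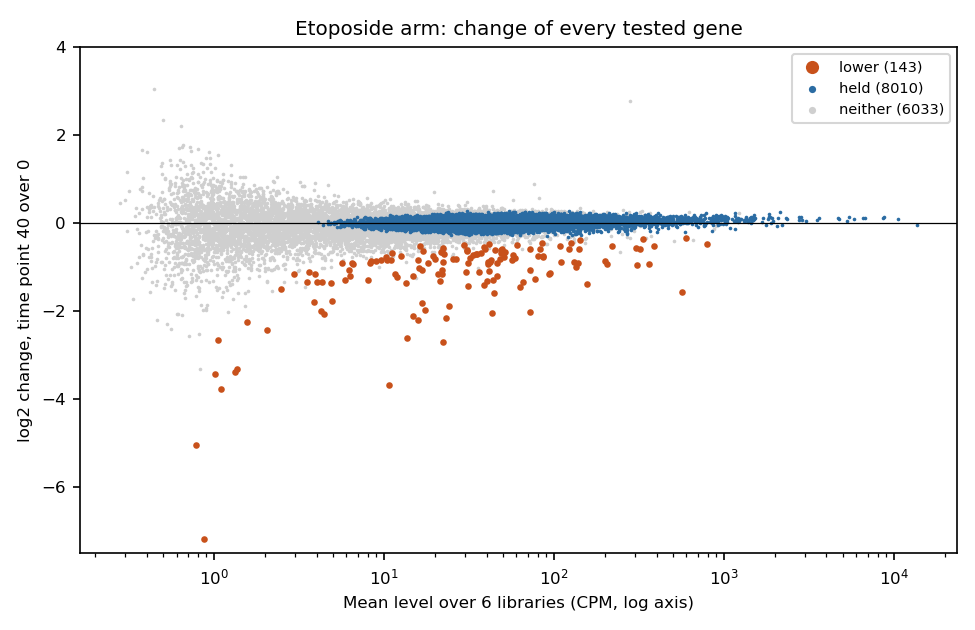
Log2 change of time point 40 over time point 0 in the etoposide arm (vertical axis) against the mean level over the 6 libraries (horizontal log axis, CPM, counts scaled to a common library size), 1 point per tested gene. The 143 genes called lower lie below 0 at every level, the 8010 held genes form a narrow band around 0, and most genes of low level are in neither group.

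The genes called lower took up 6572, 7024 and 6844 CPM together at time point 40, against 12310, 11700 and 11720 CPM at time point 0. The 2 groups of libraries did not overlap, as follows from the choice of these genes. The median called gene was left with 53.3% of its time point 0 level, which is a log2 change of −0.91. Of the 143, 19 were left with under 25%, 44 with 25 to 50%, 77 with 50 to 75% and 3 with more. Of the 5 genes nearest outside the threshold, AC093525.8 (log2 change −1.88, adjusted p = 0.0511 by edgeR) lay closest. It was followed by SOX4, a transcription factor of progenitor cells (log2 change −0.45, adjusted p = 0.0516 by edgeR), ZBTB39 (−0.71, adjusted p = 0.0516), ASB7 (−0.51, adjusted p = 0.052) and ZNF503 (−0.76, adjusted p = 0.052).

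Among the largest falls were inhibitors that close signalling loops. SOCS3, which blocks cytokine receptors that signal through JAK kinases (chromosome 17, 78356778 to 78360077, minus strand, GRCh38), was at 5.06, 6.58 and 5.09 CPM at time point 40, against 29.9, 25.1 and 22.5 CPM at time point 0. The groups stood apart, with a log2 change of −2.21 (SE 0.18, adjusted p = 1.29e-07, edgeR). DUSP6, a phosphatase that switches off ERK, was at 21.4, 27.5 and 17.3 CPM at time point 40, against 64.1, 88.3 and 47.7 CPM at time point 0, a log2 change of −1.58 (SE 0.15, adjusted p = 9.28e-07). TRIB1, a pseudokinase that brings targets to an E3 ligase, was at 10.4, 6.16 and 8.53 CPM at time point 40, against 40.5, 45.7 and 27.4 CPM at time point 0. Its log2 change was −2.16 (SE 0.21, adjusted p = 1.26e-06), and all 3 libraries of time point 40 were below those of time point 0. SPRY2, an inhibitor of receptor tyrosine kinase signalling, was at 58.3, 75.7 and 40.5 CPM at time point 40, against 129, 159 and 97.5 CPM at time point 0, a log2 change of −1.16 (SE 0.10, adjusted p = 2.98e-07, and 0.203 without the replicate block). NFKBIA, the inhibitor that keeps NF-kB in the cytoplasm, was at 20.7, 29.1 and 12.5 CPM at time point 40, against 52.3, 89.5 and 28.3 CPM at time point 0. The groups overlapped because replicates differed in level, although each pair fell, with a log2 change of −1.41 (SE 0.16, adjusted p = 1.18e-05, and 0.616 without the block). Of 47 tested feedback inhibitors 14 fell (29.8%) and 9 held (19.1%), against 1.01% and 56.5% of all tested genes. Their median log2 change was −0.36, against 0.004 over all tested genes. Besides those named, PHLDA1, SPRY1, NFKBIZ, RGS4, DUSP1, DUSP4, DUSP7, SOCS6 and SMAD7 fell, while ERRFI1, SPRED1, SPRED2, SOCS2 and SMAD6 held. The call of DUSP1 was lost in 4 of the 6 fits that left out 1 library (adjusted p up to 0.131, edgeR). Without the block neither DUSP1 nor NFKBIZ was called (adjusted p = 0.46 and 0.568, edgeR).

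**Figure D2:**
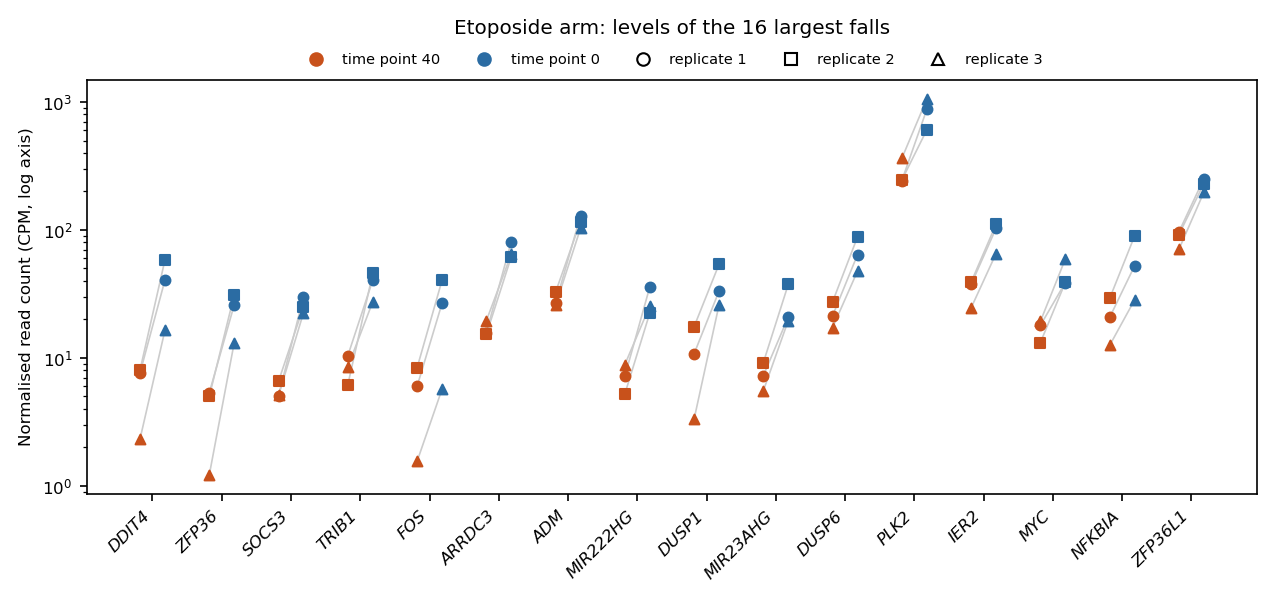
Normalised read count (CPM, log axis) of the 16 largest falls with a mean of at least 5 CPM and little same-strand overlap with another gene, in each library of time point 40 (orange, left) and time point 0 (blue, right). Lines join libraries with the same replicate number, and each line drops toward time point 40.

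Early-response transcription factors, whose genes switch on within minutes of a stimulus and whose mRNAs are short-lived, fell in 9 of 37 tested cases, with 7 held and a median of −0.36. These shares were 24.3% lower and 18.9% held, against 1.01% and 56.5% of all tested genes. IER2, a nuclear early-response protein, was at 37.5, 39.0 and 24.6 CPM at time point 40, against 103, 111 and 65.3 CPM at time point 0. Its groups did not overlap, and the log2 change was −1.46 (SE 0.13, adjusted p = 5.53e-07, edgeR). MYC, a growth-promoting transcription factor (chromosome 8, 127735434 to 127741434, plus strand, GRCh38), was at 17.9, 13.2 and 19.3 CPM at time point 40, against 38.8, 38.9 and 59.2 CPM at time point 0, a log2 change of −1.42 (SE 0.14, adjusted p = 9.28e-07). KLF6, a zinc finger factor, was at 49.4, 61.8 and 67.7 CPM at time point 40, against 134, 120.0 and 136 CPM at time point 0. Every library of time point 40 lay below every library of time point 0 for both genes, and KLF6 changed by −1.13 (SE 0.13, adjusted p = 1.9e-05). JUN, a subunit of the AP-1 factor, was at 87.4, 139.5 and 46.5 CPM at time point 40, against 146, 264 and 119 CPM at time point 0, with overlapping groups, a log2 change of −0.99 (SE 0.14, adjusted p = 0.000141) and no call without the block (adjusted p = 1). FOS, its partner, was at 5.98, 8.35 and 1.55 CPM at time point 40, against 26.6, 40.3 and 5.68 CPM at time point 0, a log2 change of −2.11 (SE 0.38, adjusted p = 0.00849). The call for FOS was lost when any of the 3 libraries of time point 40 or replicate 2 of time point 0 was left out, with an adjusted p of up to 0.124. BHLHE40, CEBPB, CSRNP1 and KLF10 also fell. EGR1, an early-response zinc finger factor, was at 44.0, 61.9 and 30.7 CPM at time point 40, against 118, 139 and 47.3 CPM at time point 0, which did not pass the test (log2 change −1.10, SE 0.36, adjusted p = 0.41), and ATF3, FOSB and the 3 NR4A genes were likewise neither called nor held.

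Of 33 tested transcription factors that set cell identity, 7 were lower (21.2%) and 11 held (33.3%), with a median of −0.14. SOX9, a factor of progenitor cells (chromosome 17, 72121020 to 72126420, plus strand, GRCh38), was at 57.8, 68.1 and 66.2 CPM at time point 40, against 97.4, 110.5 and 119 CPM at time point 0, and its groups did not overlap (log2 change −0.76, SE 0.10, adjusted p = 3.41e-05, edgeR). ID1, an inhibitor of basic helix-loop-helix factors, was at 6.35, 7.83 and 8.42 CPM at time point 40, against 17.8, 18.2 and 21.9 CPM at time point 0, a log2 change of −1.36 (SE 0.16, adjusted p = 1.97e-05). HES1, ID3, SNAI1, SNAI2 and FOXC2 fell too. The calls of SNAI2 and ID3 were lost in 4 and 2 of the 6 fits that left out 1 library. Both were also lost without the replicate block (adjusted p = 0.279 and 0.516, edgeR). OTX2, a retinal pigment epithelium factor outside this list, was at 21.4, 19 and 17.1 CPM at time point 40, against 38.2, 35.5 and 28.2 CPM at time point 0, and fell by 0.82 on the log2 scale (SE 0.12, adjusted p = 0.000382). The 204 tested ZNF genes of chromosome 19, most of which encode KRAB zinc finger repressors, had a median of −0.24 with 5 called lower (2.45%) and 26 held (12.7%). The 228 ZNF genes of other chromosomes had a median of −0.19 with 4 called lower (1.75%) and 70 held (30.7%). Over all tested genes, 1.01% were called lower and 56.5% held. The median levels of the ZNF groups were lower, 5.79 and 11.5 CPM against 24.3 CPM. At 5 CPM or more, 22% and 42.4% held, against 74.1% of all tested genes. Among the called ZNF genes, ZNF574 changed by −0.91 (SE 0.15, adjusted p = 0.000813) and ZNF281 by −0.91 (SE 0.14, adjusted p = 0.00061). Those calls and that of ZNF764 did not depend on any 1 of the 6 libraries. Without the replicate block ZNF574 kept its call (adjusted p = 0.012, edgeR), and ZNF281 (0.357) and ZNF764 (0.0952) lost theirs. ZNF607, ZNF227, ZNF436 and ZNF217 lost theirs whichever of the 6 was left out (adjusted p up to 0.369), and ZNF304 in 5 of the 6 cases.

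mRNAs for proteins that themselves bind AU-rich elements and promote or oppose decay, listed together with the stem-loop RNase ZC3H12A, were split. ZFP36, the founding member of a family that recruits deadenylases (chromosome 19, 39406813 to 39409412, plus strand, GRCh38), was at 5.34, 5.01 and 1.22 CPM at time point 40, against 26.0, 31.0 and 13.2 CPM at time point 0. Its groups did not overlap and the log2 change was −2.61 (SE 0.30, adjusted p = 2.78e-05, edgeR, and 0.116 without the replicate block). Its relative ZFP36L1 was at 96.3, 92.0 and 70.4 CPM at time point 40, against 252, 229.6 and 197 CPM at time point 0, a log2 change of −1.39 (SE 0.12, adjusted p = 1.81e-07). ZFP36L2 changed by −1.27 (SE 0.13, adjusted p = 1.52e-06) and ZC3H12A, an RNase that cuts stem loops, by −1.20 (SE 0.18, adjusted p = 0.000443). These were the 4 of 18 tested members of the list that fell (22.2%), while 12 held (66.7%, against 74.1% of all tested genes at 5 CPM or more). None of 64 deadenylation, decapping and other decay factors was called, where 1.01% of all tested genes were. Of the 64, 49 held (76.6%, median −0.02), near the 74.1% of all tested genes at 5 CPM or more.

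Large falls were also measured in genes outside these classes. DDIT4, an inhibitor of mTORC1 (chromosome 10, 72273920 to 72276036, plus strand, GRCh38), was at 7.64, 8.04 and 2.33 CPM at time point 40, against 40.6, 58.3 and 16.5 CPM at time point 0, the log2 change being −2.69 (SE 0.18, adjusted p = 1.29e-08, edgeR, and 0.557 without the replicate block). ADM, which encodes the vasoactive peptide adrenomedullin (chromosome 11, 10304680 to 10307397, plus strand, GRCh38), was at 26.7, 32.7 and 25.8 CPM at time point 40, against 129, 116 and 103 CPM at time point 0. Both genes lay lower in every library of time point 40, and ADM changed by −2.03 (SE 0.14, adjusted p = 1.29e-08). ARRDC3, an arrestin-like membrane adaptor, was at 15.7, 15.2 and 19.5 CPM at time point 40, against 80.9, 61.5 and 64.6 CPM at time point 0, a change of −2.04 (SE 0.15, adjusted p = 1.45e-08). PLK2, a polo-like kinase and p53 target, was at 243, 246 and 363 CPM at time point 40, against 874, 605 and 1053 CPM at time point 0, a change of −1.56 (SE 0.11, adjusted p = 1.45e-08, and 0.0691 without the block). CDKN1B, the cyclin-dependent kinase inhibitor p27 of resting cells, was at 33.2, 34.8 and 43.2 CPM at time point 40, against 97.9, 78.3 and 105 CPM at time point 0, a change of −1.34 (SE 0.13, adjusted p = 1.61e-06). IL6, a cytokine, was at 1.10, 0.731 and 0.111 CPM at time point 40, against 4.82, 4.02 and 1.44 CPM at time point 0, with a change of −2.42 (SE 0.41, adjusted p = 0.00135, and 0.982 without the block). Its replicate 3 at time point 40 lay under the floor of 3 counts, so the size of its fall is uncertain. Of the secreted signals 6 of 44 fell (13.6%), namely ADM, BMP4, CCL2, CCN1, IL6 and LIF, and 17 held (38.6%). Over all tested genes 1.01% were called lower and 56.5% held. CCL2 lost its call in 4 of the 6 fits that left out 1 library (adjusted p up to 0.147, edgeR). Without the block CCL2, CCN1 and LIF were not called. EIF4A1 had the largest fall of the genes at 5 CPM or more, 1.93, 1.67 and 0.997 CPM at time point 40 against 20.2, 21.3 and 17.9 CPM at time point 0, but 48.6% of its exon bases overlap another gene on the same strand, so what was counted there is uncertain. RPL36A, the only one of 82 cytosolic ribosomal protein genes called lower, shares part of its locus with a readthrough gene and is uncertain too, and its call was lost when any of 4 of the 6 libraries was left out (adjusted p up to 0.264).

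Several small RNA host transcripts belonged to the falling class. MIR222HG, the host of miR-221 and miR-222, was at 7.18, 5.22 and 8.86 CPM at time point 40, against 35.8, 22.4 and 25.5 CPM at time point 0, the log2 change being −1.97 (SE 0.23, adjusted p = 1.56e-05, edgeR). MIR23AHG, the host of the miR-23a, miR-27a and miR-24 cluster, was at 7.27, 9.19 and 5.54 CPM at time point 40, against 20.9, 37.6 and 19.6 CPM at time point 0, a change of −1.81 (SE 0.26, adjusted p = 0.000323, and 0.11 without the replicate block). In both host genes the libraries of time point 40 lay below those of time point 0. The mature sequences named 3p from these hosts are shown, with the seed (bases 2 to 8) in capitals. Those named 5p are not listed. The falls concern the precursor transcripts and not the microRNAs, which were not measured. The sequences are from RefSeq on GRCh38.p14.
hsa-miR-221-3p (chrX:45746180-45746202, - strand): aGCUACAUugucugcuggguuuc
hsa-miR-222-3p (chrX:45747036-45747056, - strand): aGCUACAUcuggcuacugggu
hsa-miR-23a-3p (chr19:13836595-13836615, - strand): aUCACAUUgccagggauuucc
hsa-miR-27a-3p (chr19:13836447-13836467, - strand): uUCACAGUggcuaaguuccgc
hsa-miR-24-3p (chr19:13836289-13836310, - strand): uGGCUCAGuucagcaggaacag
The first pair share the seed GCUACAU, and the remaining 3 have seeds of their own. Of 27 tested microRNA host transcripts 4 were lower (14.8%) and 2 held (7.41%), with a median of −0.37. Over all tested genes 1.01% were lower and 56.5% held. The median level of these hosts was 2.68 CPM, against 24.3 CPM for all tested genes. The other calls, MIR17HG and MIRLET7A1HG, were lost in 4 and 5 of the 6 fits that left out 1 library (adjusted p up to 0.447). Of 31 tested small nucleolar RNA host genes, whose introns hold snoRNAs, 4 were lower (12.9%) and 11 held (35.5%), with a median of −0.30. SNHG3 was at 30.1, 26.9 and 26.9 CPM at time point 40, against 67.8, 63.4 and 61.3 CPM at time point 0, a change of −1.20 (SE 0.11, adjusted p = 2.98e-07), with 11% of its exon bases on those of RCC1. The snoRNA genes SNORA33, SNORA73B and SNORD104 were called as well, but they lay at 0 to 0.222 CPM in all libraries of time point 40, which is under the floor of 3 counts, against 0.904 to 3.41 CPM at time point 0. None of 13 long noncoding RNAs known by name was called, where 1.01% of all tested genes were. Of the 13, 12 had a negative change (median −0.13). In the DMSO arm their median was 0.035, with NEAT1 at 0.032 and MALAT1 at 0.035. Neither of these 2 was called in the test of the difference between arms. NEAT1, the scaffold of paraspeckles, was at 571, 546 and 586 CPM at time point 40, against 813, 689 and 739 CPM at time point 0. Its groups did not overlap (log2 change −0.39, SE 0.17, adjusted p = 0.636, edgeR). MALAT1 was at 169, 124 and 279 CPM at time point 40, against 248, 211 and 442 CPM at time point 0 (log2 change −0.66, SE 0.40, adjusted p = 0.953). Both passed when the 6 libraries or the 9 of the arm were fitted alone and when no filter on low counts was used. The lowest adjusted p by edgeR was 0.000248 for NEAT1, in the 6 libraries, and 4e-07 for MALAT1, without the filter, and the highest over all alternatives was 1 for both.

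Most genes of basic cell function held, at shares close to those of other genes of high level. Among protein-coding genes at 60 CPM or more, 95% of those with 5 or more exons and 86.2% of those with fewer held. Of 82 tested cytosolic ribosomal protein genes 78 held (95.1%), of 17 glycolysis genes 16, of 39 actin, tubulin and filament genes 37, of 77 nuclear respiratory chain genes 70 and of 34 proteasome genes 30. GAPDH was at 7195, 7233 and 6484 CPM at time point 40, against 6407, 7054 and 5920.0 CPM at time point 0 (log2 change 0.11, SE 0.09). EEF1A1, a translation elongation factor, had a log2 change of 0.13 (SE 0.07) and ACTB, an actin, of 0.09 (SE 0.09). The medians of these classes lay between 0.066 and 0.112, slightly above the 0.004 of all genes, and scaling the libraries to the ribosomal protein and glycolysis genes instead moved the median of all genes to −0.09. Of 26 transcripts of the m6A machinery 19 held (73.1%), close to the 74.1% of all tested genes at 5 CPM or more, and 0 were called. Their median was −0.09, with 23 of 26 negative, while their median in the DMSO arm was 0.022. The difference between these medians was not tested. METTL3 changed by −0.04 (SE 0.11) and METTL14 by −0.09 (SE 0.12). RBM15, an adaptor of the methyltransferase complex, came closest, at 6.72, 7.41 and 7.97 CPM at time point 40 against 9.73, 12.3 and 13.2 CPM at time point 0 (log2 change −0.67, SE 0.16, adjusted p = 0.0521, edgeR). Topoisomerases and the enzymes that remove their adducts were also uncalled, with 17 of 22 held (77.3%, also near that background), and TOP2A (0.07, SE 0.14) and TOP2B (0.11, SE 0.13), the etoposide targets, held. So did ERCC3, which encodes XPB, POLR2A, the large subunit of RNA polymerase II, and CDKN1A, a p53 target that inhibits cyclin-dependent kinases. Of 39 tested p53 targets 31 held and PLK2 alone was called (2.56%, against 1.01% of all tested genes). At 5 CPM or more 83.8% of the p53 targets held, near the 74.1% of all tested genes.

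**Figure D3:**
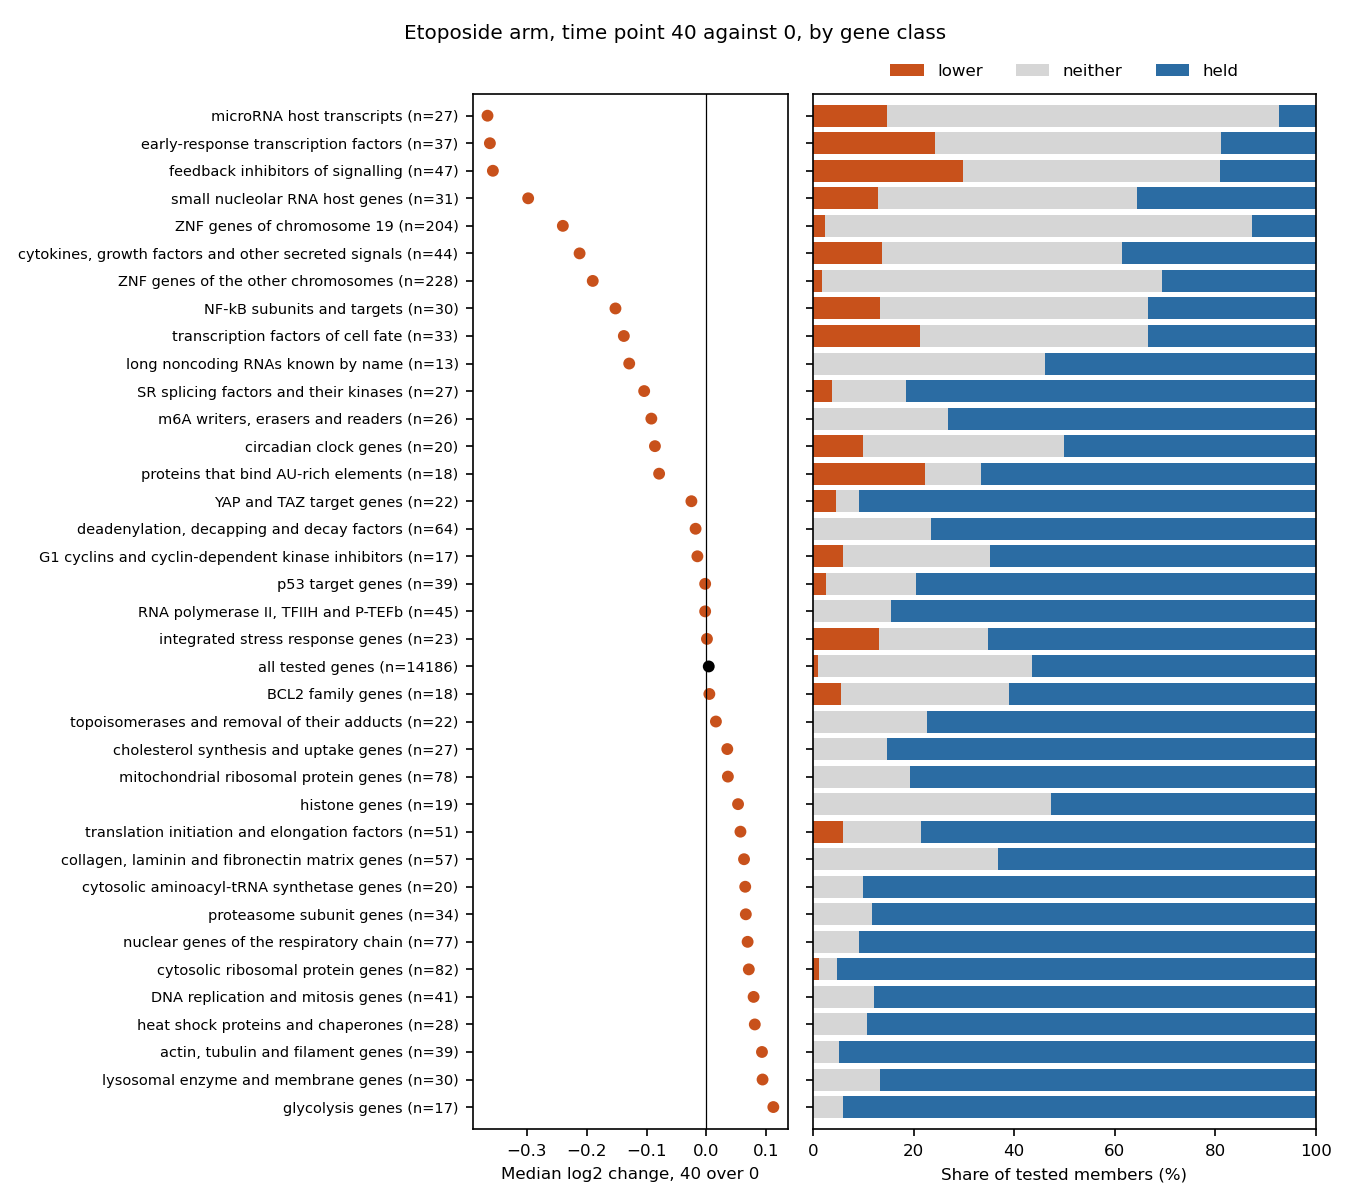
Median log2 change of the tested members of each gene class (left, black for all tested genes) and the share of members called lower, neither or held (right, percent). microRNA hosts, early-response factors and feedback inhibitors lie at the low end, from −0.37 to −0.36, and glycolysis genes at the high end, at 0.11.

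The structure of the genes differed between classes. Among protein-coding genes, the 124 called lower had a median of 3 exons, against 10 for the 7845 that held and 9 for all 12177. Transcripts of 1 or 2 exons made up 34.7% of the lower genes, 3.45% of the held ones and 6.34% of all. The lower genes spanned a median of 6660 bases, against 37327 for the held genes and 34133 for all, whereas the spliced lengths were much closer, at 2969, 3281 and 3173 bases. By exon number, 4.72% of genes with 1 exon, 5.94% with 2, 2.43% with 3 or 4, 0.74% with 5 to 9 and 0.205% with 10 or more were called lower. Genes of 1 to 4 exons were called more often within each level bin too: 3.31% against 0.349% for genes of 5 or more exons at 5 to 20 CPM, 4.89% against 0.543% at 20 to 60 CPM, and 4.68% against 0.372% at 60 CPM and above. These are descriptions across genes, which are not replicates, and no test was made. Over 10356 coding genes with 5 CPM or more, the log2 change had Spearman's rho of 0.071 with exon number and −0.09 with gene length. It was −0.24 with spliced length and −0.25 with 3′ UTR length. Among all tested coding genes, those with a 3′ UTR under 0.5 kb had a median change of 0.051 with etoposide and −0.024 with DMSO. At 4 kb or more the medians were −0.045 and 0.072, so the order was opposite in the DMSO arm. This difference between arms was not tested.

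**Figure D4:**
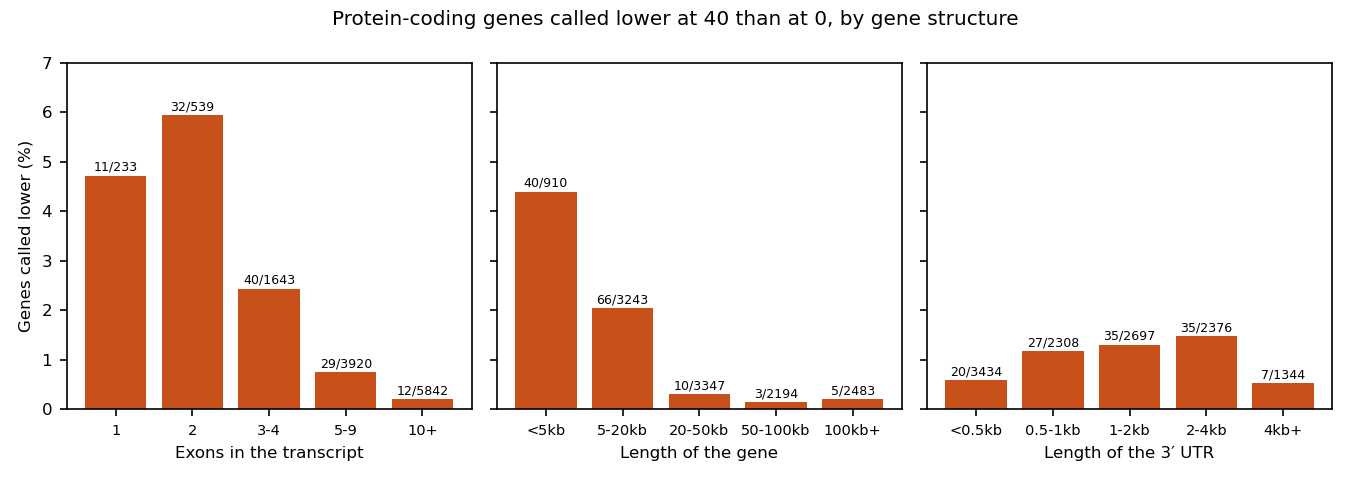
Percent of protein-coding genes called lower at time point 40 than at time point 0, by number of exons, gene length and 3′ UTR length (bars, with genes called over genes tested above each). The share is highest for genes of 2 exons, at 5.94%, and lowest among the exon bins for genes of 10 or more exons, at 0.205%.

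The 3′ UTRs of called genes held the AU-rich heptamer TATTTAT more often. This heptamer, UAUUUAU in RNA, is bound by the ZFP36 family, and was searched on the transcript strand of the 3′ UTR of 1 representative transcript per gene, with overlapping matches counted. It was present in 51.6% of the lower genes, 33.2% of the held genes and 33.3% of all, and at 0.587, 0.31 and 0.33 matches per kb. Within UTRs shorter than 1 kb, 2.13% of genes with a match were called lower, against 0.607% without one. The shares were 1.95% against 0.959% at 1 to 2 kb and 1.86% against 1.01% at 2 to 4 kb, and 0.484% against 0.645% at 4 kb and above. Coding genes with 3 or more TATTTAT matches had a median change of −0.069 with etoposide and 0.057 with DMSO. Without a match the medians were 0.029 and −0.004. The Pumilio motif TGTANATA was in 41.9% of the lower, 28.5% of the held and 27.8% of all UTRs. Of the 24 largest falls, 22 had a 3′ UTR and 10 of these a TATTTAT match. Windows of 30 bases round the first match are given for 9 of those and for the 3 held genes of highest level with a match (GRCh38, transcripts of GENCODE 29, match in capitals, U written as T), because the same letters are found in transcripts that fell and in transcripts that held. A match is a description of the sequence and not of binding.
ZFP36 (chr19:39409181-39409210, + strand): aatgggcccttTATTTATgacgactttatt
SOCS3 (chr17:78356831-78356860, - strand): aactttgcacaTATTTATatttatattcag
FOS (chr14:75282060-75282089, + strand): tgtttttaattTATTTATtaagatggattc
DUSP1 (chr5:172768642-172768671, - strand): gggctggtcctTATTTATttaacttcaccc
PLK2 (chr5:58454065-58454094, - strand): aataaacttttTATTTATtacagcccaaag
NFKBIA (chr14:35401698-35401727, - strand): accacattttaTATTTATtgtgcttcgagt
ZFP36L1 (chr14:68788335-68788364, - strand): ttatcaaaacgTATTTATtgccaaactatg
CDKN1B (chr12:12721533-12721562, + strand): aagataattgcTATTTATttttacaagaag
ZCCHC3 (chr20:300287-300316, + strand): ttctgaataaaTATTTATcttttgtattgc
FN1 (chr2:215361023-215361052, - strand): ctcttacctgtTATTTATcaatttttccca
FTH1 (chr11:61964431-61964460, - strand): acgagtatttgTATTTATtaaactcattag
DCBLD2 (chr3:98799053-98799082, - strand): aaatcacagagTATTTATtaccaatgctgc
The first 9 fell by log2 −1.32 to −2.61, and FN1, FTH1 and DCBLD2 held at −0.04, 0.12 and −0.05.

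At time point 20, edgeR called 0 genes against time point 0 in the etoposide arm (0%), with 387 at an unadjusted p under 0.05. Of the 143 genes, 133 had their mean at 20 between those at 0 and 40, 9 were above the mean at 0 and 1 was below that at 40. The median gene had covered 28.5% of its log2 fall at 20. For the 122 genes with a mean of 5 CPM or more, the median level was 85.3% of time point 0 at 20 and 55.2% at 40.

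**Figure D5:**
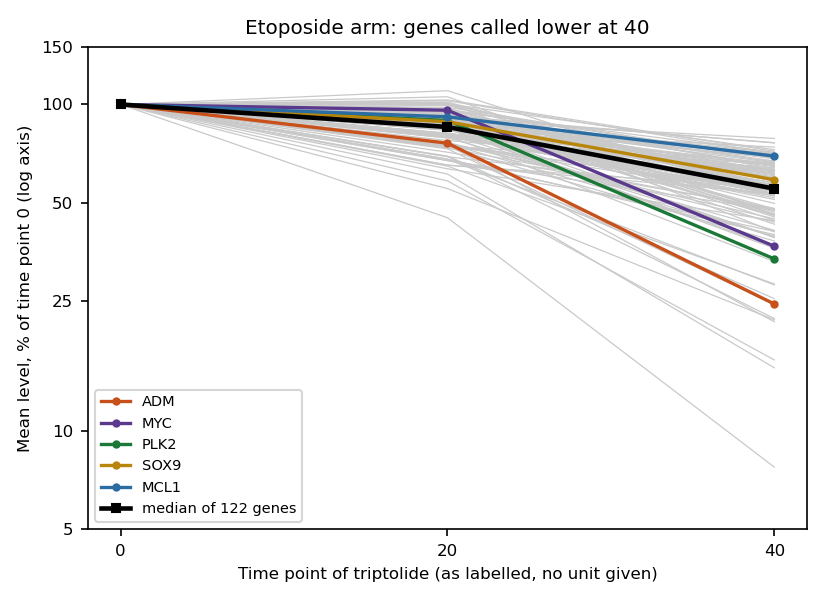
Mean level at time points 0, 20 and 40 as a percentage of time point 0 (log axis) for the 122 genes called lower with a mean of at least 5 CPM (grey), with the median in black. The median line passes 85.3% at 20 and reaches 55.2% at 40.

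The same interval in the DMSO arm, which shares no library with the etoposide arm, gave 171 lower genes (1.21%). Of the 143 called with etoposide, 142 had a negative change with DMSO, 102 were also called there, and the median change with DMSO was −0.997. The difference between the arms was tested as an interaction, and edgeR called 0 genes (485 at an unadjusted p under 0.05), as did DESeq2 and limma-voom. Without a filter on low counts the interaction called 108 genes. The median of the feedback inhibitors was −0.36 with etoposide and −0.43 with DMSO, that of early-response factors −0.36 and −0.51, and that of the cell-fate factors −0.14 and −0.40. BTG2, an antiproliferative gene, was at 7.64, 6.26 and 2.21 CPM at time point 40 of etoposide, against 6.23, 10.9 and 5.18 CPM at time point 0. These groups overlapped (log2 change −0.49, SE 0.31, adjusted p = 0.962, edgeR), while its change with DMSO was −3.11, and the difference of 2.62 (SE 0.58) between the arms did not pass the interaction test (adjusted p = 0.992).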

How the data were processed

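The authors deposited raw read counts per Ensembl gene, 1 table for each library. Tools named in the submitters' processing notes are bcl2fastq, HISAT2 and featureCounts, with GRCh38. Whether counting used strand is not given in the sources used here. The 58051 identifiers were joined to GENCODE 29, which named 57447 of them.

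Samples were grouped by their titles. The quasi-likelihood test of edgeR 4.0.16 (R 4.3.3) was fitted to all 18 libraries with TMM scaling, filterByExpr (14186 genes kept), robust dispersions and the replicate number as a block, and p-values were adjusted by Benjamini-Hochberg over all tested genes, two-sided. The pairing comes from the rule for this comparison: deviations from the group means correlated at 0.359 to 0.911 in the 45 same-numbered pairs, against −0.785 to 0.63 for 90 pairs of other numbers. CPM values use the TMM-scaled library size. Standard errors were taken from the F statistic and intervals from its degrees of freedom. The p-values measure the spread left around the group means after the replicate block, estimated over all 18 libraries of both arms. Differences in level between replicates are taken out by the block. The labels call the 3 replicates independent. The scripts were tested on simulated counts.

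Genes named are the 24 largest called falls with a mean of 5 CPM or more and the same sign in all 3 pairs, up to 4 members of each class by smallest p, held genes and a fixed list of checks. SPRY1, HES1, OTX2, EGR1, ATF3, FOSB, the snoRNA genes and the further members listed without values, and the genes just outside the threshold, were chosen after their values were seen. The class lists, comparison and members were chosen with earlier results of these data known. Alternatives used DESeq2 1.42.0 and limma 3.58.1, other scalings, filters and sets of libraries.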

Additional observations from a re-analysis of the deposited data

How the results depend on the processing

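With no replicate block, 29 genes were called lower, 0 higher, and 4800 held, against 143, 0 and 8010 with it, and 21 of the 59 called genes among those named kept their call. Of the same 59, 40 kept it in all 6 fits that each left out 1 library of the comparison. In those fits and the fits that left out a whole replicate, 56 to 118 genes were lower, 0 to 1 higher and 4710 to 7185 held. Replicate 3 was the library set whose removal gave the 56 and the 4710. The count of higher genes was 4 without a filter on low counts, 2 with DESeq2, 34 in a fit of the 6 libraries alone (271 lower), 1 without replicate 2 of DMSO at time point 0 and 3 without replicate 2 of etoposide at time point 20 (191 lower, 8513 held). The interaction count, 0 in the main setting, was 108 without a filter. With the held limit at 0.3 in place of 0.5, 2515 genes held. The cause of these shifts was not tested. The lower count was 130 to 178 under the other scalings, filters and tests and 141 in the 9 libraries of the arm. Of 3961 values of named genes under the alternatives, 0 changed sign after being called, 182 lost their call and 31 gained one. Of 756 class medians, 119 moved beyond the spread between replicates. Depth limits the held class: 8003 of the 8010 held genes had a mean of 5 CPM or more.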
